A study of Mus musculus with 3 samples.

Results

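The 8 genes described here encode platelet granule proteins and products of late megakaryocyte maturation: *Pf4*, *Ppbp*, *Vwf*, *Thbs1*, *Mmrn1*, *Tubb1*, *Alox12* and *F2rl2*. They were taken by name from the 27,994 gene names of a single-cell count table, all 8 were found, and each was followed across the 7 clusters to which the authors assigned the cells. In cluster 6, 7 of the 8 had their highest level, and *Vwf* was highest in cluster 0. Of 10988 genes compared in the same way, 11.6% were highest in cluster 6 and 11.4% in cluster 0. The 8 genes nevertheless differed: *Pf4*, *Ppbp*, *F2rl2* and *Tubb1* had over 93% of all their UMIs in cluster 6. *Vwf* and *Mmrn1* had most of theirs in the endothelial clusters 0, 1 and 2. *Alox12* and *Thbs1* had 79.2% and 87.3% in cluster 6, with low levels in endothelial clusters. *Pf4* was also found in clusters 1 and 5, at 1.795 and 1.16, with overlapping libraries. In both its level was higher in cells with the macrophage gene *C1qb*.

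Megakaryocytes are the bone marrow cells that shed platelets. While they mature they fill alpha granules with chemokines and adhesive proteins, build a ring of tubulin that gives the platelet its disc shape, and put receptors and lipid enzymes in place through which platelets respond to injury. Endothelial cells share part of this equipment, since they store von Willebrand factor in organelles of their own, the Weibel–Palade bodies, and megakaryocytes and endothelium share several transcription factors.

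The cells were endothelial cells from the hearts of 12–16-week-old female transgenic mice, in which all cells carry green fluorescent protein (GFP). They were sequenced fresh (0 h) and after 24, 48, 72 and 96 h in aggregates with PDGFRA+ stromal cells (PSCs) of the *Mesp1* lineage from E11.5 embryos, in medium with SCF, Flt3L and an interleukin (IL-3 by the study's methods). Before culture the sort excluded cells with the blood and platelet surface proteins CD41 and CD45. At harvest it asked for GFP, CD31 and VE-cadherin without PDGFRA, so that a cell that had gained CD41 or CD45 was not removed. All time points of a pool were sequenced together, and neither the pool (A, B or C) nor the time point of a cell can be read from the material used here. The 9562 cells were therefore treated as 1 sample of 3 libraries of unknown pool, no test was run, and the clusters, which were made from these same counts, are described and not tested against each other.

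Levels are UMIs (captured molecules) of a gene per 10,000 UMIs of all cells in the group, with exact 95% Poisson intervals. Shares of cells are those above 0.5 counts per 10,000 of the cell (CPTT), with exact Clopper–Pearson intervals. Both cover counting error only. The libraries held 72496908 to 92498954 UMIs with medians of 13440.5 to 38312 UMIs per cell. Median depth also differed between clusters, from 7875 in cluster 1 to 36065.5 in cluster 5 and 32186 in cluster 6, so shares are also given after each cell was thinned to 5000 UMIs, which left out 90 cells. A total of 13 barcodes occurred in more than 1 library, and only 1 cell of cluster 6 carried such a barcode. The summed level of 10 pan-endothelial genes was 43.6 to 64.8 in clusters 0, 1 and 2 and 4.94 to 8.11 in the other clusters. Arterial genes were highest in cluster 0, at 30.3 against 0.600 to 7.65. Stromal genes led in cluster 4, and macrophage and granulocyte genes in cluster 5, at 20.3 and 16.4. The label of the gene group fits the cells that carry it: 11 platelet surface genes summed to 52.9 in cluster 6 and to 1.13 to 7.33 elsewhere. Cluster 6 was low in the genes of both proteins used to sort endothelium, with *Cdh5* at 0.503 and *Pecam1* at 0.776 against 9.30 and 7.27 in cluster 0.

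The genes lie on 5 chromosomes of GRCm38 by GENCODE release M21, and all are protein coding. *Ppbp* (ENSMUSG00000029372, chr5:90768518-90770063) and *Pf4* (ENSMUSG00000029373, chr5:90772435-90773383) are neighbours on the plus strand with 2371 bases between them. *Vwf* (ENSMUSG00000001930) lies at chr6:125546774-125686679 and *Mmrn1* (ENSMUSG00000054641) at chr6:60924976-60989378. *Thbs1* (ENSMUSG00000040152, chr2:118111876-118127133) and *Tubb1* (ENSMUSG00000016255, chr2:174450695-174457882) are on chromosome 2. *Alox12* (ENSMUSG00000000320, chr11:70241457-70255353) is on the minus strand, and *F2rl2* (ENSMUSG00000021675) lies at chr13:95696853-95702739. *F2rl2* overlaps *Iqgap2* and *Thbs1* overlaps the non-coding *Gm29233*, both on the opposite strand. How the counting treated strand is not given in the sources used here.

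For the 4 genes whose UMIs were nearly all in cluster 6, 120 bases are shown, from RefSeq on GRCm38.p6, plus strand. Each stretch ends just before the RefSeq start or the GENCODE gene start, whichever lies further upstream. The 2 starts are the same base for *Pf4* and *Ppbp*. The RefSeq start lies 100 bases upstream of the GENCODE start for *Tubb1* and 67 bases downstream for *F2rl2*, so the *F2rl2* stretch ends before the GENCODE start. Capitals mark words of 3 motifs known from megakaryocyte genes, searched on both strands: the GATA motif (written AGATAA or otherwise AGATAG, and with another first letter TGATAA or otherwise TGATAG), the ETS motif (written AGGAAG or otherwise CGGAAG) and the NF-E2 motif (written TGAGTCA). The stretches are chr5:90772315-90772434 for *Pf4*, chr5:90768398-90768517 for *Ppbp*, chr2:174450475-174450594 for *Tubb1* and chr13:95696733-95696852 for *F2rl2*.
Pf4: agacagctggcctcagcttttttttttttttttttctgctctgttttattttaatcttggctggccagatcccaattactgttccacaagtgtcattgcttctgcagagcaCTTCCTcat
Ppbp: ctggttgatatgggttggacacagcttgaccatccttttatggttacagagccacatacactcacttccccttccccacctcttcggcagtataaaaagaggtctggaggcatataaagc
Tubb1: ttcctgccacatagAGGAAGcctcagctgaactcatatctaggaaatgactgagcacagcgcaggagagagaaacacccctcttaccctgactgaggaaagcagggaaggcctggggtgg
F2rl2: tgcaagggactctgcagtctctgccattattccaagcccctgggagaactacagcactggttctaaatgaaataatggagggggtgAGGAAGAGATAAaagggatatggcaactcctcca

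RefSeq promoters were found for 6 of the 8 genes, and *Vwf* and *Thbs1* were not among them. In the 250 bases before the RefSeq start, *F2rl2* held a word of all 3 motifs, with ETS at position -101, GATA at -95 and NF-E2 at -54, counted from the RefSeq start, and the NF-E2 word falls outside the stretch shown. Of 32851 promoters of the same length, 0.545% held all 3, 26.5% a GATA word, 39.2% an ETS word and 4.46% the NF-E2 word. *Pf4* held an ETS word at -9 on the minus strand, *Tubb1* an ETS word at -106 and *Mmrn1* a GATA word at -34, before a RefSeq start 19341 bases inside the GENCODE gene span, and *Ppbp* and *Alox12* held none. A matching word describes the sequence and is not a bound site.

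*Pf4* was the most abundant member in cluster 6, and both alpha-granule chemokines had nearly all their UMIs there. *Pf4* (platelet factor 4, or Cxcl4, a heparin-binding chemokine stored in alpha granules) stood at 167 UMIs per 10,000 in cluster 6 (166–168), with 175, 129 and 196 in library suffixes 1, 2 and 3. In the other clusters it ranged from 0.158 in cluster 2 to 1.795 in cluster 1, and the lowest library of cluster 6 was far above the highest of any other cluster, 2.47. Cluster 6 thus held 93.9% of all *Pf4* UMIs, and its level was 92.9-fold that of cluster 1. *Ppbp* (pro-platelet basic protein, the precursor of the neutrophil-attracting chemokine Cxcl7) was at 7.90 in cluster 6 (7.73–8.07), with 9.75, 5.81 and 7.64 by library. Its levels elsewhere were 0.00726 to 0.0190, so that the next cluster was 415-fold lower and 97.3% of its UMIs lay in cluster 6. Library suffix 2 was the lowest of the 3 in cluster 6 for both chemokines.

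**Figure D1:**
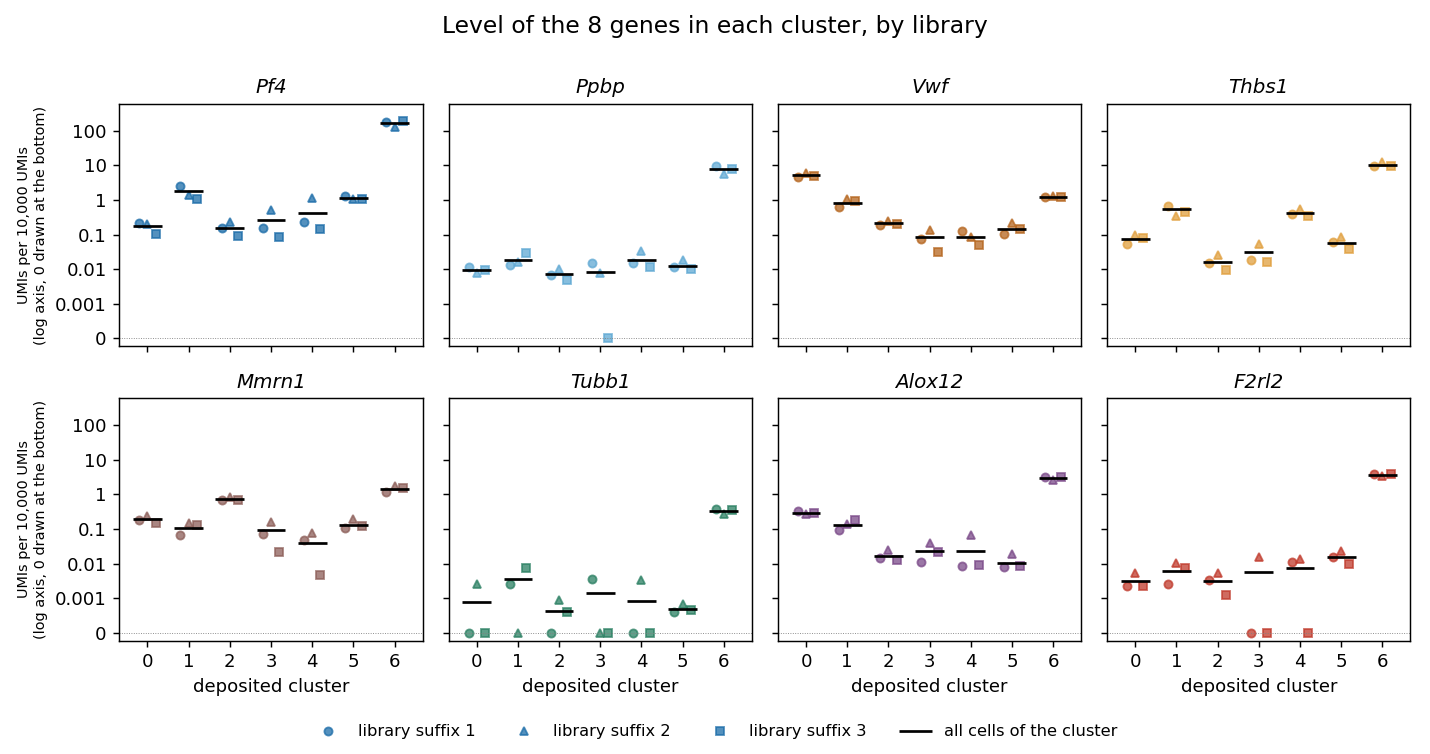
Level of each gene (UMIs per 10,000 UMIs, log axis with 0 drawn at the bottom) in the 7 clusters, with a symbol for each library suffix and a black line for all cells of the cluster. *Pf4*, *Ppbp*, *Tubb1* and *F2rl2* stand far higher in cluster 6 than elsewhere, *Vwf* is highest in cluster 0 at 5.21, and *Mmrn1* comes second in cluster 2, at 0.743 against 1.49 in cluster 6.

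The adhesive granule proteins differed in how far they were shared with endothelium. *Thbs1* (thrombospondin 1, an adhesive glycoprotein of alpha granules that stromal and endothelial cells also make) was at 10.6 in cluster 6 (10.4–10.8), with 9.58, 12.5 and 9.80 by library. Cluster 1 followed at 0.537, 19.7-fold lower, and cluster 4 at 0.417, and their library ranges overlapped. Clusters 0, 5, 3 and 2 were lower still, from 0.0763 down to 0.0163, and 87.3% of *Thbs1* UMIs lay in cluster 6. *Mmrn1* (multimerin 1, the alpha-granule protein that binds coagulation factor V and is also known from lymphatic and sinusoidal endothelium) was at 1.49 in cluster 6 (1.41–1.56), with 1.19, 1.77 and 1.59 by library. Cluster 2 followed at 0.743 (0.729–0.758), with 0.686, 0.860 and 0.695. The ranges over libraries did not overlap, and the ratio was 1.999-fold. Because cluster 2 was much the larger, it held 10444 of 13305 *Mmrn1* UMIs and cluster 6 only 1600.

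*Vwf* (von Willebrand factor, which tethers platelets to the vessel wall) had the opposite order. Cluster 0 stood at 5.21 (5.08–5.34), with 4.76, 6.17 and 4.82 by library, and cluster 6 at 1.23 (1.17–1.30), with 1.20, 1.27 and 1.25. Every library of cluster 0 lay above every library of cluster 6, by 4.22-fold in the sum. Cluster 1 came next at 0.817, with 0.616, 1.09 and 0.917, below every library of cluster 6, by 1.51-fold in the sum. Cluster 2 was at 0.216, and clusters 5, 4 and 3 at 0.146, 0.0879 and 0.0855. Of 11 other Weibel–Palade genes, *Edn1* (endothelin 1) was likewise highest in cluster 0, at 2.38, *Angpt2* and *Selp* were highest in cluster 1, at 1.06 and 1.22, and *Rab27a* and *Sytl4*, which act in granule docking, were highest in cluster 6, at 0.247 and 0.136. Against clusters 0, 1 and 2 together, 10 of them could be compared, of which 3 were past 2-fold higher in cluster 6 and 6 past 2-fold lower, in every library. The 3 were *Rab27a*, *Sytl4* and *Rab3d*, and the shares over all genes were 9.96% and 18.8%.

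Among the maturation and activation genes, *F2rl2* (protease-activated receptor 3, the thrombin-binding cofactor on mouse platelets) was low outside cluster 6. Its level there was 3.74 (3.63–3.86), with 3.85, 3.51 and 3.84 by library, against 0.00318 to 0.0152 elsewhere, and 96.2% of its UMIs lay in cluster 6. *Tubb1* (the beta-1 tubulin of the platelet marginal band) was the least detected member, with 368 UMIs in cluster 6 and 15 in all other clusters together. It stood at 0.342 in cluster 6 (0.308–0.378), with 0.389, 0.269 and 0.356 by library. *Alox12* (platelet-type 12-lipoxygenase, which oxidizes arachidonic acid) was at 2.98 in cluster 6 (2.88–3.09), with 3.19, 2.60 and 3.104. It was followed by cluster 0 at 0.301 (0.272–0.333), with 0.340, 0.277 and 0.283, a 9.90-fold difference without overlap of libraries, and by cluster 1 at 0.133. Clusters 2, 3, 4 and 5 lay between 0.0108 and 0.0238, with overlapping libraries.

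The shares of positive cells gave a different order of members than the levels. In cluster 6, 90.3% of the 310 cells were above 0.5 CPTT for *Pf4* (86.5–93.4%), 89.0% for *Thbs1*, 86.1% for *F2rl2* and 76.1% for *Mmrn1*. *Vwf* and *Alox12* were positive in 60.6% and 59.7%, *Ppbp* in 49.0% (43.3–54.7%) and *Tubb1* in 21.9%. At 5000 UMIs per cell the order held for most members, but *Alox12* (45.3%) and *Ppbp* (42.7%) then passed *Vwf* (36.9%). *Ppbp*, with a higher level than *F2rl2*, was thus seen in fewer cells.

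In droplets, free RNA gives UMIs of a gene to cells that do not make it. Clusters 3 and 4, with a joint median depth of 20089 UMIs and the lowest sums of the platelet surface genes, served as a reference. The part of free RNA in these shares was not tested. At 5000 UMIs, 10.4% of their cells held a *Pf4* UMI, against 7.76% in cluster 0 and 8.67% in cluster 2, both below the reference, and 20.3% and 21.9% in clusters 1 and 5. For *Ppbp* the reference was 0.399%, and clusters 0, 1 and 2 were at 0.484% to 0.554%. For *Vwf* it was 4.93% against 81.3% in cluster 0, 18.9% in cluster 1 and 10.5% in cluster 2. *Mmrn1* was found in 30.4% of the cells of cluster 2 against 4.00% in the reference, and *Alox12* in 16.1% of cluster 0 and 6.85% of cluster 1 against 1.33%. *Thbs1* was itself found in 9.57% of cluster 4, so cluster 3, at 2.93%, is its better reference, against 5.91% in cluster 1 and 3.46% in cluster 0.

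**Figure D2:**
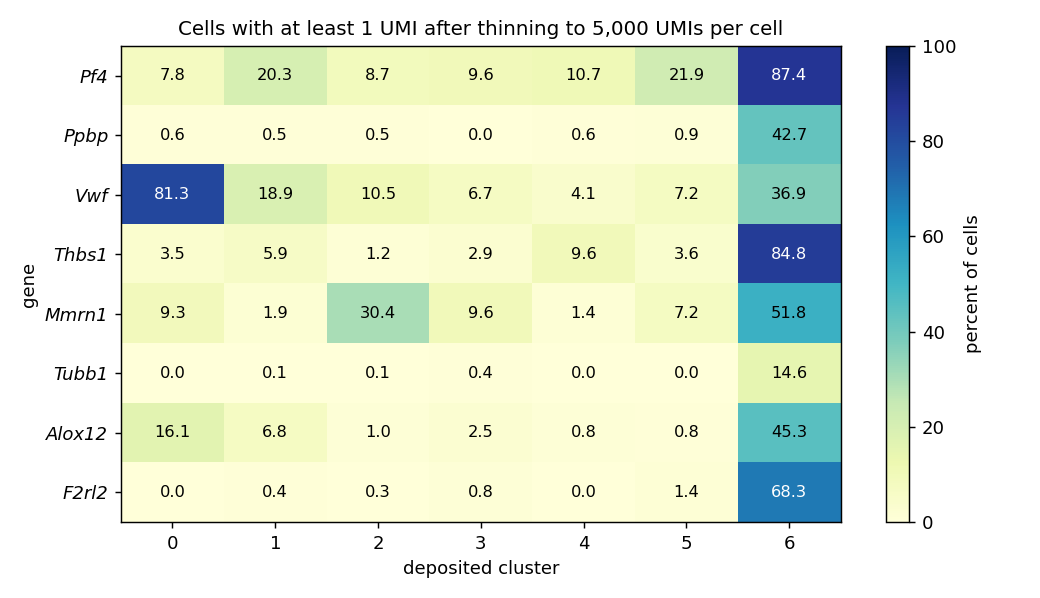
Percent of cells with at least 1 UMI of each gene (rows) in each cluster (columns) after every cell was thinned to 5000 UMIs. *Pf4* and *Thbs1* are found in over 84% of cluster 6, *Vwf* in 81.3% of cluster 0, and *Mmrn1* in 30.4% of cluster 2.

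Free RNA from a single source carries its genes in a fixed ratio, so each member was also set against *Ppbp*. *Pf4* had 21.1 UMIs per *Ppbp* UMI in cluster 6 (20.7–21.6). In clusters 0, 2, 3 and 4 the ratio was 18.1, 21.7, 31.8 and 22.6, with intervals that held the value of cluster 6, whereas clusters 1 and 5 had 94.4 (57.9–166) and 90.8 (72.7–115). *Tubb1* per *Ppbp* overlapped cluster 6 in every cluster, though with few UMIs. *F2rl2* did so in all but cluster 5, where it was 1.19 (0.873–1.63) against 0.474. *Vwf*, *Thbs1*, *Mmrn1* and *Alox12* were above their ratio in cluster 6 in every other cluster. *Alox12* was at 31.6 per *Ppbp* UMI in cluster 0 against 0.378, *Mmrn1* at 102 in cluster 2 against 0.188, and *Thbs1* at 28.2 in cluster 1 against 1.34. In cluster 4 a single cell held 19 of the 28 *Alox12* UMIs and 269 of the 497 *Pf4* UMIs. Both ratios of cluster 4 rest largely on that cell.

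**Figure D3:**
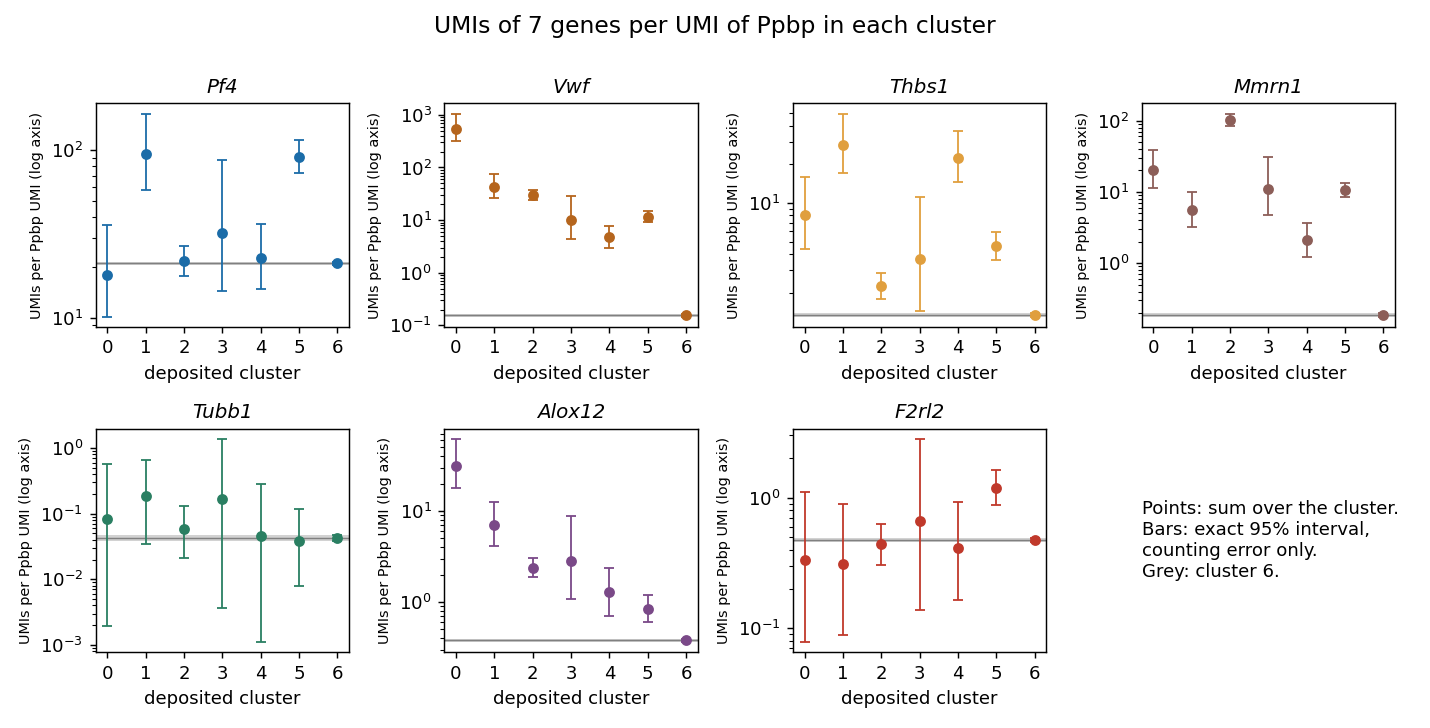
UMIs of 7 genes per UMI of *Ppbp* in each cluster (log axes with a range of their own), with exact 95% intervals for counting error; the grey band is cluster 6. *Pf4* leaves the band in clusters 1 and 5, *F2rl2* in cluster 5, and *Vwf*, *Thbs1*, *Mmrn1* and *Alox12* lie above it in all 6 other clusters. Most *Alox12* and *Pf4* UMIs of cluster 4 came from a single cell.

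In clusters 1 and 5 the *Pf4* level was higher in cells with the complement gene *C1qb*, a macrophage marker. In cluster 5 the 682 cells with *C1qb* and without *Mpo* (myeloperoxidase, of granulocyte precursors) at 5000 UMIs had a *Pf4* level of 2.48, and the 514 cells with neither had 0.228. They held 6230 and 438 of the 7083 *Pf4* UMIs of the cluster. The log2 ratio was 3.44 (3.30–3.58), in the same direction in all 3 libraries, while the 326 cells with *Mpo* alone were at 0.210. Median depth was similar, at 34907.5 and 33724.5 UMIs. *Ppbp* did not follow, with 0.0167 and 0.0115 and an interval that held 0. *Vwf* and *Mmrn1* went the other way, at 0.0822 against 0.298 and 0.0588 against 0.216.

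In cluster 1, the 63 cells with *C1qb* had a *Pf4* level of 8.73 against 0.965 in the 672 with neither gene, a log2 ratio of 3.18 (3.03–3.33), in the same direction in all 3 libraries. They held 798 and 692 of its 1510 *Pf4* UMIs, and the level in cells with neither gene was still higher than in all cells of cluster 0 (0.172) or cluster 2 (0.158). *Thbs1* moved with it there, at 3.01 against 0.244 (log2 3.62, 3.34–3.91), although in cluster 5 it was lower in the cells with *C1qb*. The *C1qb* cells of cluster 1 were somewhat deeper, with a median of 10689 against 8134 UMIs. The 80 cells with the most *Pf4* held 89.9% of its UMIs in cluster 1, and the 157 with the most held 79.8% in cluster 5. In cluster 4 a single cell held 269 of 497 *Pf4* UMIs and 19 of 28 *Alox12* UMIs. Without it the *Pf4* level of cluster 4 fell from 0.420 to 0.194, and that of library suffix 2 from 1.13 to 0.208.

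Against clusters 0, 1 and 2 together, 7 of the 8 members were called higher in cluster 6, that is past 2-fold in the sum and higher in every library. Of all 8758 genes compared (at least 0.1 UMIs per 10,000 in the higher group), 9.96% were called higher and 18.8% lower. The median log2 ratio was 8.44 for the members and -0.11 for all genes. *F2rl2* had a log2 ratio of 10.13, *Ppbp* 9.94, *Pf4* 9.42, *Tubb1* 9.11, *Thbs1* 7.78, *Alox12* 6.04 and *Mmrn1* 1.16. *Vwf*, at 0.95, stayed under 2-fold, and without library suffix 2 it passed at 1.05. The joint level of the 3 clusters mostly reflects cluster 2, with 140516887 UMIs against 12586923 in cluster 0 and 8412051 in cluster 1. *Vwf* was thus above the joint level in cluster 6, at 1.23, though below cluster 0 at 5.21. *Mmrn1*, called higher against the joint level, was just under 2-fold against cluster 2 alone, with a log2 ratio of 0.999. Against cluster 5 alone all 8 were called higher, where 8.43% of 8341 genes were higher and 9.71% lower, and the medians were 7.71 and -0.06. Of 10988 genes with 0.1 UMIs per 10,000 in some cluster, 11.6% were highest in cluster 6 and 11.4% in cluster 0.

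Genes of the same processes were taken from lists, and the calls against clusters 0, 1 and 2 are given with the number tested. Over all genes, 9.96% were called higher and 18.8% lower. Of other alpha-granule cargo, 11 of 23 tested genes were higher and 9 lower. *F5* (coagulation factor V, the partner of multimerin 1) was at 0.925 against 0.0115 and *Tgfb1* at 8.72 against 2.14. The higher genes of the list also include *Plek* (pleckstrin, 8.07 against 0.0336), which is a cytosolic protein and not granule cargo. The lower genes were ones that endothelium makes in quantity, such as *Sparc* (1.60 against 11.8), *Fn1* (fibronectin, 0.201 against 1.94) and *Mmrn2* (multimerin 2, 0.146 against 1.40). *F13a1* (factor XIII A) was called higher, at 0.418, but was highest in cluster 5. Unlike its neighbours on chromosome 5, *Cxcl3* was highest in cluster 1, at 1.36 against 0.0251 in cluster 6, while *Cxcl5* reached 0.316 in cluster 6 and 0.145 in cluster 1.

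The genes that build and release granules were called higher in 14 of 22 and lower in 1 of 22, *Abcc4* (0.0538 against 0.144). The shares over all genes were 9.96% and 18.8%. *Rab27b*, a GTPase of granule docking, was at 6.66 against 0.0542, *Slc35d3*, needed for dense granules, at 1.37 against 0.00563, and *Unc13d*, which primes granules for release, at 0.886 against 0.0122. *Nbeal2*, whose loss empties alpha granules in grey platelet syndrome, was at 0.215 against 0.0281. Of the thrombin and nucleotide receptors beside *F2rl2*, all 4 tested were higher: *P2rx1* (2.11 against 0.00935), *P2ry1* (0.933 against 0.0329), *F2rl3*, the thrombin receptor that signals on mouse platelets (0.803 against 0.139), and *F2r* (5.47 against 1.22). *P2ry12*, the ADP receptor of mature platelets, was too low to be tested there and was lower in cluster 6 than in cluster 5, at 0.0204 against 0.197.

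Of the arachidonate genes beside *Alox12*, 6 of 7 were higher and none lower, among them *Tbxas1* (thromboxane synthase, 0.804 against 0.00433), *Pla2g4a* (the phospholipase that frees arachidonate, 1.78 against 0.0488) and *Ptgs1* (cyclooxygenase 1, 1.61 against 0.220). *Tbxa2r*, the thromboxane receptor, was at 0.349 against 0.380. Of the cytoskeletal genes beside *Tubb1*, 15 of 25 were higher and 3 lower. The platelet alpha-tubulins *Tuba4a* (6.11 against 0.0287) and *Tuba8* (0.818 against 0.00167) were higher, and *Tubb6* (0.303 against 1.96), *Tubb2b* and *Stmn1* lower. The medians of these 5 lists were 0.22 for cargo, 1.95 for granule formation, 3.68 for receptors, 2.87 for arachidonate and 1.803 for the cytoskeleton. Against cluster 5 the counts higher and lower were 11 and 3 of 21, 9 and 1 of 21, 4 and 1 of 5, 4 and 2 of 8, and 17 and 2 of 25, in the same order. Over all genes the shares were 9.96% and 18.8% against clusters 0, 1 and 2, and 8.43% and 9.71% against cluster 5.

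**Figure D4:**
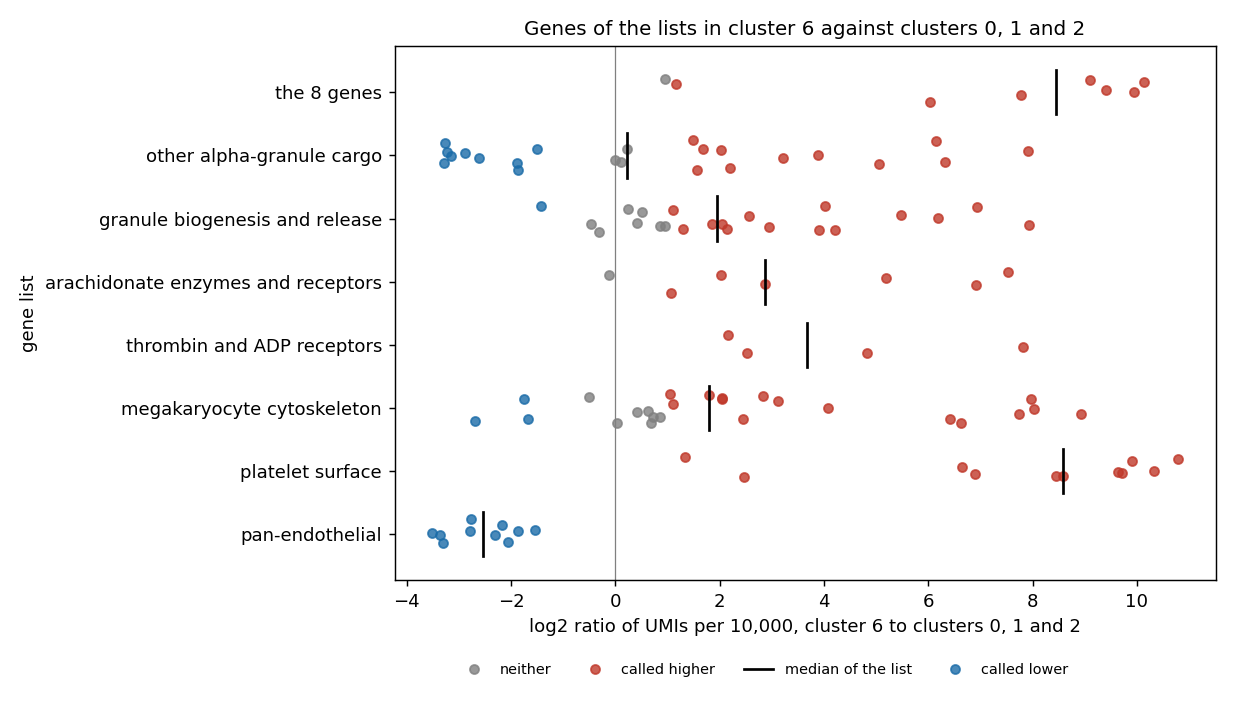
Log2 ratio of UMIs per 10,000 in cluster 6 to clusters 0, 1 and 2 together, 1 point per tested gene, for the 8 genes and 7 lists; red and blue points passed 2-fold in the sum with the same direction in every library, and black bars are medians. The 8 genes have a median of 8.44, cargo genes lie on both sides of 0, and all 10 pan-endothelial genes were lower.

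Within cluster 6 the members varied widely from cell to cell. *Pf4* ran from 0 to 746 CPTT with a median of 108, and 21 cells held none. *Thbs1* had a median of 8.40 and *F2rl2* of 3.12, with 22 and 29 cells without a UMI. *Ppbp* had a median of 0.294 and a maximum of 119, and 143 cells held none. The 31 cells with the most UMIs of a gene held 67.8% of the *Ppbp* UMIs of the cluster and 58.2% for *Tubb1*, against 43.2% for *Pf4*, 34.2% for *Mmrn1* and 31.7% for *Thbs1*. That ranking favours deep cells. The 31 cells with the highest CPTT held 61.5% for *Ppbp*, 45.7% for *Tubb1*, 34.8% for *Pf4*, 16.7% for *Mmrn1* and 17.4% for *Thbs1*.

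Cells of cluster 6 carried several members at once. At 5000 UMIs, 149 of 309 cells (48.2%, 42.5–53.9%) held at least 5 of the 8, with a median of 4. Outside cluster 6 only 4 cells did, 2 in cluster 2 and 1 each in clusters 1 and 5, and the 0 cells of clusters 0, 3 and 4 allow shares of up to 0.510%, 1.53% and 0.718%. As a description over the 309 cells at equal depth, Spearman's rho between pairs of members ran from 0.173 (*Mmrn1* with *F2rl2*) to 0.657 (*Pf4* with *Thbs1*), and all 28 pairs were positive.

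All 8 members were lower in the cells of cluster 6 with a UMI of *Mki67* or *Kit*. The 190 cells with a UMI of *Mki67*, a proliferation gene, had a *Ppbp* level of 3.40 against 16.9 in the 119 without (log2 -2.31, -2.38 to -2.24), an *Alox12* level of 1.91 against 5.12 (log2 -1.42) and a *Tubb1* level of 0.233 against 0.559 (log2 -1.26). *Pf4* stood at 131 against 237 (log2 -0.85), and *F2rl2* and *Mmrn1* moved least, by log2 ratios of -0.62 and -0.47. Each member was lower in all 3 libraries, and the *Mki67* cells were the deeper ones, with medians of 36211.5 and 29949 UMIs. In the 20 cells with *Kit*, the stem cell factor receptor, *Ppbp* was at 1.43 against 8.39 (log2 -2.56) and *Tubb1* at 0.0654 against 0.363 (log2 -2.47, from 5 UMIs), while *Mmrn1* differed by -0.74. Again every member was lower in all 3 libraries.

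The 228 cells with *Gp9*, a subunit of the von Willebrand factor receptor, had more of every member than the 81 without. *Ppbp* was at 9.90 against 0.966 (log2 3.36, 3.17–3.55), *Alox12* at 3.65 against 0.663 (2.46) and *Pf4* at 196 against 64.8 (1.60). *Mmrn1* was at 1.61 against 1.06 (0.61). The direction was shared by all 3 libraries except for *Tubb1*, which was higher in 2. By contrast, cells with and without the endothelial receptor *Kdr* differed little, with log2 ratios of -0.35 to 0.28 for the 8 members.

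In a division chosen after these values were seen, the cells of cluster 6 were ordered by their thinned UMIs of the 11 platelet surface genes, none of which is a member, and split into a low, a middle and a high group of 103 cells each with 0 to 12, 12 to 30 and 30 to 136 such UMIs. Median depths were 30344, 32208 and 33783 UMIs. *Ppbp* went from 0.602 through 2.80 to 19.2, 31.8-fold from the low to the high group, and *Alox12* from 0.222 through 1.71 to 6.58, 29.7-fold. *Tubb1* and *Pf4* followed at 16.4-fold and 14.7-fold, with *Pf4* at 22.1, 130 and 325. *Vwf* differed by 9.16-fold, *Thbs1* by 6.57-fold, *F2rl2* by 5.32-fold and *Mmrn1* by 3.49-fold. All 8 thus increased with the surface genes, and those found most often in the low group were *Pf4*, *Thbs1* and *F2rl2*, in 68.0%, 62.1% and 47.6% of its cells at 5000 UMIs, against 16.5% for *Ppbp* and 3.88% for *Tubb1*. *Kit* went the other way, at 0.133 and 0.0212 in the low and high groups, as did *Mki67*, at 3.63 and 1.77, and *Cd34*, at 1.02 and 0.427. The endothelial genes differed, since *Cdh5* fell from 0.774 to 0.358 and *Kdr* stood at 1.14 and 0.996.

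**Figure D5:**
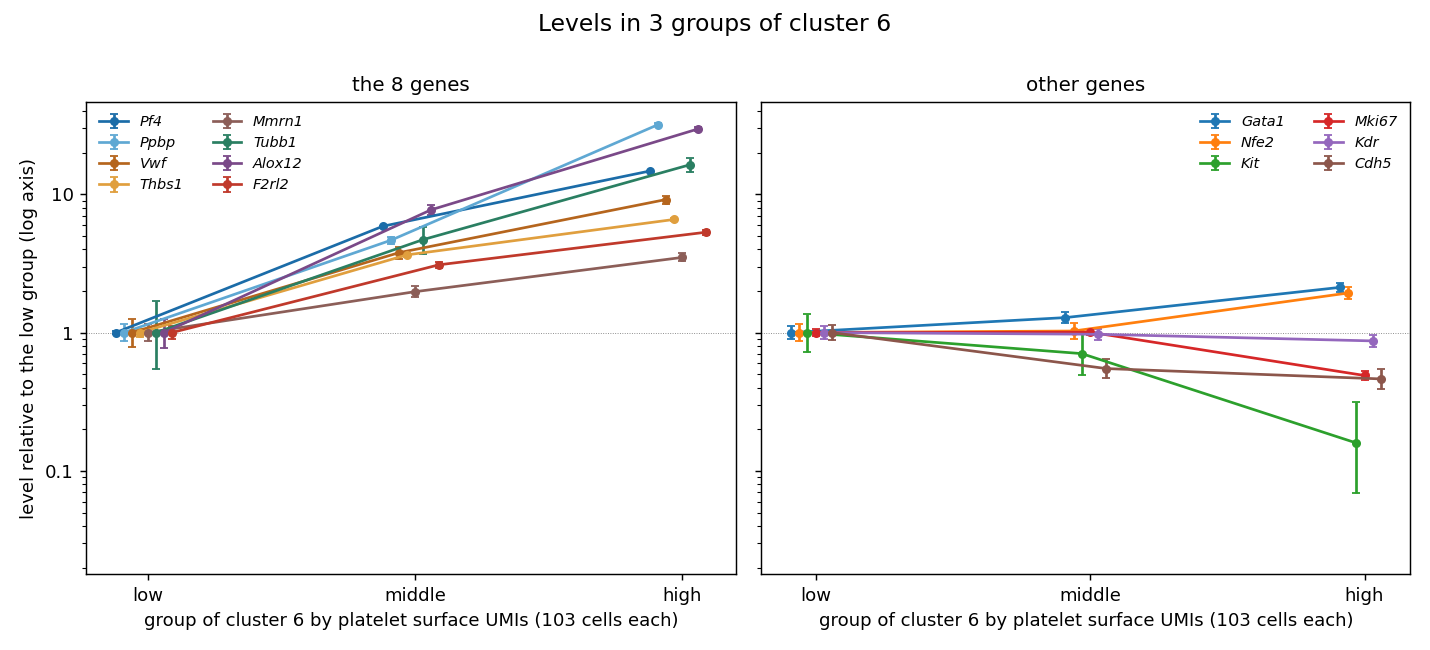
Levels relative to the low group (log axis) in 3 groups of 103 cells of cluster 6 ordered by platelet surface UMIs, for the 8 genes (left) and for transcription factor, progenitor, proliferation and endothelial genes (right), with exact 95% Poisson intervals of each level. Of the 8 genes, *Ppbp* and *Alox12* gained most, 31.8-fold and 29.7-fold, and *Mmrn1* least at 3.49-fold. *Kit*, *Mki67* and *Cdh5* fell.

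In the endothelial clusters 1 and 2, cells with *Vwf* had more of the arterial genes *Gja5* and *Gja4* than the others of their cluster. The arterial list held 7 genes, and apart from *Sox17* in cluster 2 the rest are not described for these cells. The same holds for the endocardial genes other than *Npr3*, and an arterial or endocardial identity of these cells was not tested. In cluster 2, the 564 cells with a *Vwf* UMI at 5000 UMIs had a level of the gap junction gene *Gja5* of 0.245 against 0.0423 in the 4813 without (log2 2.53, 2.32–2.74), of *Edn1* of 0.574 against 0.156 and of *Gja4* of 2.26 against 0.777. *Thbs1* (0.0488 against 0.0132, log2 1.88) and *Alox12* (0.0356 against 0.0154, log2 1.21) were also higher in them, all in 3 of 3 libraries, while *Mmrn1* was at 0.791 against 0.738 and *Sox17* at 1.24 against 1.23. The cells with *Vwf* were the shallower ones, at a median of 16802.5 against 23178 UMIs. In cluster 1, the 141 cells with *Vwf* had more *Npr3*, an endocardial gene (0.528 against 0.0986), *Gja5* (0.546 against 0.153) and *Gja4* (2.29 against 0.764).

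In cluster 0, where most cells had *Vwf*, *Alox12* sided with it and *Mmrn1* did not. The 587 cells with *Vwf* had an *Alox12* level of 0.330 against 0.202 in the 135 without (log2 0.71, 0.30–1.14) and a *Mmrn1* level of 0.160 against 0.294 (log2 -0.87, -1.27 to -0.47). The 116 cells with *Alox12* had a *Vwf* level of 7.15 against 4.87, with less of the venous genes *Nr2f2* (0.0232 against 0.138) and *Aplnr* (0.0927 against 0.419). The 67 cells with *Mmrn1* had more *Aplnr* (1.23 against 0.288), *Nr2f2* (0.331 against 0.102) and *Nrp2* (0.557 against 0.188), and less *Vwf* (3.13 against 5.39) and *Bmx* (0.261 against 0.689). Each of these differences had the same direction in all 3 libraries. In cluster 2 the 1633 cells with *Mmrn1* stood out less, with *Prox1*, the lymphatic transcription factor, at 0.260 against 0.146 and *Aplnr* at 4.03 against 3.76. Other genes of the arterial, venous and lymphatic lists are not described for the cells of this paragraph. Their vessel type was not tested.

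Over the 21 combinations of cluster and library, the genes whose log2 levels ran most like each member were found among 5500 genes by Pearson's r, given as a description, since the points share cells and depth. *Ppbp* ran with *Gp6* (0.999), *Mpig6b* and *Cd226*, *Tubb1* with *Ppbp* (0.999), and *F2rl2* with *Ly6g6f* (0.999). *Pf4* ran with *Aftph* (0.976), *Tbxas1* and *Rabgap1l*, and *Thbs1* with *Gucy1a1* (0.976). *Mmrn1* was most like *Clec1b* (0.981), which was likewise high in clusters 6 and 2, at 4.86 and 2.16. *Alox12* was most like *Cmas* (0.968) and *F10* (0.960). *Vwf* had no partner above 0.916, which was *Tgfbr3*, at 0.529 in cluster 0 and 0.197 in cluster 6.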

How the data were processed

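Single-cell libraries (10x Genomics 3′ v3) of 3 pools were processed by the authors with Cell Ranger 3.1.0 on mm10, with batch-effect removal when libraries were joined, and the submitters' processing notes also list Seurat 3.1.5. The main deposited table holds raw UMI counts for each Ensembl identifier in each cell. Another deposited table has natural log values, ln(1 + counts per 10,000), which a recomputation matched within 6.2e-15. The last deposited table gives UMAP coordinates (a score without unit, not used) and cluster numbers. The annotation is not given in the sources used here. GENCODE M21 gave names to 27,645 of 27,998 identifiers, and 353 kept their identifier. For 4 names the counts of a pair of identifiers were summed, which left 27,994.

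The members and gene lists were chosen with earlier results of these data known. The text names the members, genes of the lists and the 3 genes most like each member. Levels, ratios and exact intervals (95%) came from sums of counts, which were as small as 1 UMI for *Tubb1* in cluster 0. Thinning used seed 1, and Scrublet (seed 0) called 8 doublets, which were kept. Levels are not divided by gene length, since 3′ libraries count molecules. The design provided for pools could not be applied. Correlations of patterns used log2(level + 0.1) for genes with a level of at least 0.5. The comparison of all genes was tested on simulated data. Alternatives left out each library or the doublets and changed depth, threshold, filter, fold, comparison group and averaging. Tools were Python 3.11.15 with scanpy 1.11.5, scipy 1.17.1, pandas 2.3.3, numpy 2.4.6 and matplotlib 3.10.9.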

Additional observations from a re-analysis of the deposited data

How the results depend on the processing

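The number of members highest in cluster 6 was 7 under every alternative that gave it, and no log2 ratio of a member to clusters 0, 1 and 2 changed sign. With the mean of the cells' CPTT in place of sums, the log2 ratios were 8.44 for *Pf4*, 9.21 for *Ppbp*, 0.48 for *Vwf*, 7.31 for *Thbs1*, 1.29 for *Mmrn1*, 7.76 for *Tubb1*, 5.37 for *Alox12* and 9.21 for *F2rl2*. At 5000 UMIs per cell they were 8.43 for *Pf4*, 9.41 for *Ppbp*, 0.46 for *Vwf*, 7.28 for *Thbs1*, 1.42 for *Mmrn1*, 5.27 for *Alox12* and 9.34 for *F2rl2*. Against cluster 2 alone they were 10.05 for *Pf4*, 2.51 for *Vwf*, 9.34 for *Thbs1*, 0.999 for *Mmrn1* and 7.44 for *Alox12*. Leaving out each library in turn gave 9.01 to 9.64 for *Pf4*, 9.65 to 10.30 for *Ppbp*, 0.89 to 1.05 for *Vwf*, 7.59 to 8.15 for *Thbs1*, 1.07 to 1.26 for *Mmrn1*, 8.51 to 9.72 for *Tubb1*, 5.95 to 6.17 for *Alox12* and 9.75 to 10.64 for *F2rl2*.

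A filter of 1 UMI per 10,000 left 252 genes higher and 296 lower against clusters 0, 1 and 2 (872 and 1650 in the report), and 213 and 128 against cluster 5 (703 and 810). At 4-fold the counts were 453 and 907, and 334 and 408. Leaving out a library gave 866 to 899 and 1586 to 1696, and 705 to 738 and 780 to 853. The cause of these shifts was not tested. No paired analysis was possible because the results come from no test. Each call instead needed the same direction within every library. Time points are mixed in every value, intervals cover counting error only, and *Tubb1*, with 383 UMIs in all, is limited by depth.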

Other observations

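Blood cell genes other than those of platelets were also found in cluster 6. The adult alpha-globin gene *Hba-a1* stood at 2.58 UMIs per 10,000 there, against 1.56 in cluster 5, and *Car2*, a carbonic anhydrase of red cells, at 2.01 against 1.04. Globins were also found in cluster 1, with *Hba-a1* at 1.10. The beta-globin *Hbb-bt* was at 1.29 in cluster 6 against 0.676 in cluster 1, but *Hbb-bs* at 0.185 against 2.98. The part of free RNA in these levels was not tested. *Epor*, the erythropoietin receptor, was at 0.577 in cluster 6 against 0.132 in cluster 5, whereas *Klf1*, the erythroid transcription factor, was at 0.0752 against 0.307. Of 8 erythroid genes, 5 of 6 tested were called higher in cluster 6 than in clusters 0, 1 and 2, where 9.96% of all genes were, and 1 of 7 was higher and 1 lower than in cluster 5, near the 8.43% and 9.71% of all genes. The summed level of 9 macrophage genes was 0.325 in cluster 6 and 20.3 in cluster 5, and that of 6 progenitor genes was 1.11 and 3.68.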
